A study of Drosophila melanogaster with 8 samples.

Results

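The odorant-binding protein genes of Drosophila melanogaster were examined in ovary RNA measured on 8 Affymetrix Drosophila 2.0 arrays. The members were all genes whose symbol is Obp followed by a digit and that had a probe set naming no other gene. This gave 47 genes, of 51 such genes in the RefSeq gene table and of 11982 genes named on the array. Where a gene had several probe sets, which held for Obp19a, Obp19c and Obp59a, the one with the highest mean over the 8 arrays stood for it. Obp50b, Obp50c, Obp57d and Obp83a had no probe set of their own. Each array held RNA of about 100 ovary pairs from virgin females, 4 to 6 h after eclosion per the labels and 1 day old per the study's methods. Of the 8 samples, 4 were labelled null and 4 het. Null females carried a mutant allele of ote on both second chromosomes, written otefinPk and otefinG in the labels, and ote encodes the nuclear lamina protein Otefin. Het females were their siblings with otefinPk over the CyO balancer, so the het samples also lacked 1 wild-type copy. All 8 samples were in addition heterozygous for a mutant allele of chk2, a kinase of the DNA damage response. This was Chk2P6 in replicates 3 and 4 of each label and Chk2P30 in replicates 1 and 2, called the P6 and P30 backgrounds here. The methods place another ote allele, oteB279G, on the P30 chromosome, against otePk in the labels.

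Odorant-binding proteins are small secreted proteins, folded around conserved cysteines, that hold hydrophobic ligands. In the antenna and in taste organs, support cells release them into the fluid around the sensory neurons, and lush is the member best known for its part in pheromone detection. Many members are also made away from sense organs, in the fat body, the gut, glia or the male reproductive tract, where several are seminal fluid proteins. The question asked of the data was which members gave signal in ovaries, on which arrays, and whether the signal differed between null and het or between the chk2 backgrounds.

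The deposited values were log2 signals per probe set, normalised by the authors with RMA, and 1 unit is a 2-fold difference. The medians of the arrays lay between 5.61 and 5.72, and pairs of arrays correlated at 0.957 to 0.990 across probe sets. Of 8 measured germline markers such as vas and osk, 8 were above the receptor-based background level on all 8 arrays, as were 7 of 8 follicle cell and eggshell markers. Ote itself read 7.58, 7.48, 8.56 and 8.66 in the arrays labelled null 1 to null 4, against 9.26, 7.27, 9.66 and 9.29 in those labelled het 1 to het 4. No array had less Ote signal than the one labelled het 2, which goes against its label, and each count of called members was also computed without it. Fewer cells of a type and less RNA per cell cannot be told apart in whole ovaries. Nothing in the sources ties the replicates to separate crosses, so the p-values measure the spread between these samples. Of the 47 members, 28 lie on chromosome 2, as ote does. Null and het females carried different second chromosomes, so an effect of ote and one of the CyO chromosome cannot be told apart for any of the 47 members. The 28 genes also lie on the chromosomes that differed.

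Background was set on each array at the 95th percentile of 112 odorant and gustatory receptor genes, which are genes of sensory neurons. This level lay between 4.81 and 5.25 on the 8 arrays. By this measure 20 of the 47 members were above background on all 8 arrays, 12 on some and 15 on none. The 20 are 42.6% of the members, against 63.9% of all named genes. Probe sets differ in how well they bind, so levels are compared between arrays and not between genes. With the 99th percentile in place of the 95th, 7 members were above it on all 8 arrays, Obp99b, Obp99c, Obp99a, Obp44a, Obp84a, Obp18a and Obp56a. Between 22 and 26 members were above background on a null array, and between 26 and 30 on a het array. The level itself was 5.25 on null 1 and 4.81 to 4.98 on the het arrays. The mean log2 signal of the family was 5.49 to 6.01 on null and 5.38 to 5.76 on het arrays. No share of all named genes per array was computed, so the counts are not read as a difference between the labels.

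**Figure D1:**
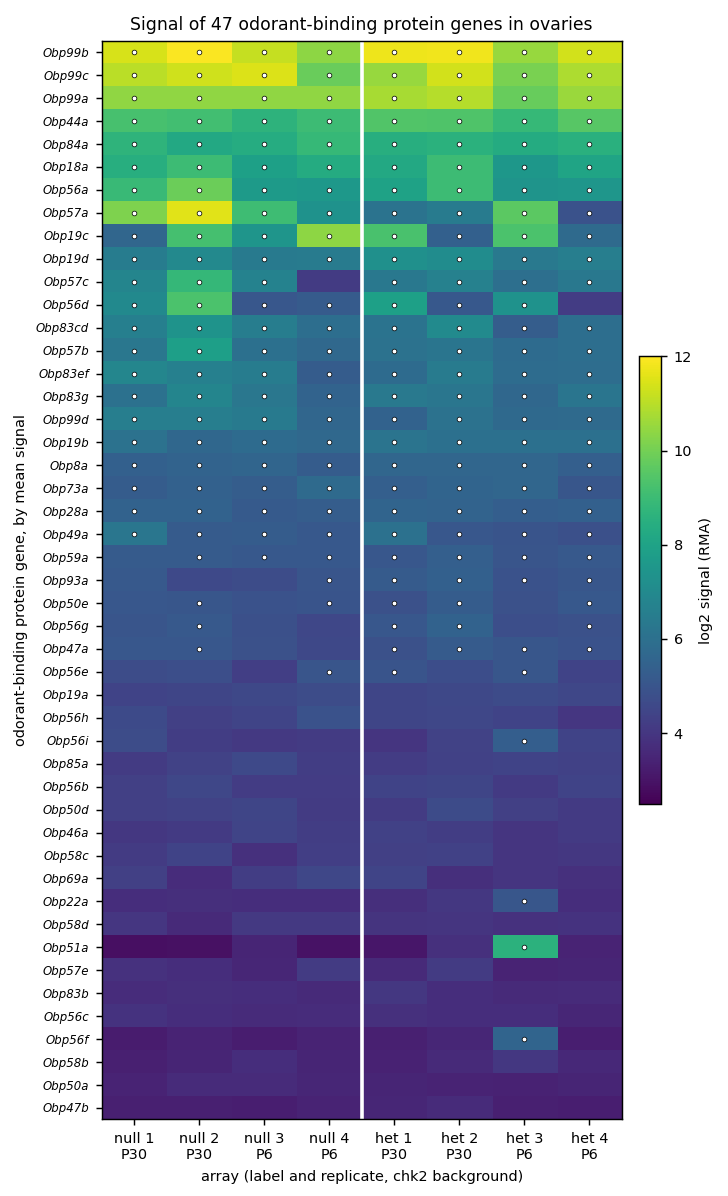
Log2 signal (RMA, colour) of the 47 odorant-binding protein genes, in rows ordered by mean signal, on the arrays labelled null 1 to null 4 and het 1 to het 4, in columns with the chk2 background under each. A white dot marks a value above the background level of that array; 20 genes have a dot on all 8 arrays and 15 on none.

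Other chemosensory families were set beside the members at the same level. The odorant and gustatory receptor genes define the level, so few of them can pass it; those above it on all 8 arrays were Or43b, Gr47b and Gr39a. Of 53 ionotropic receptor genes, which did not define it, 2 were above it on all 8 arrays, Ir76a and Ir93a. None of 12 CheA and CheB genes, which encode other secreted proteins of contact chemosensation, was above it on all arrays. Of 6 olfactory co-receptors and membrane proteins, 1 was above it on all 8 arrays, 3 on some and 2 on none. The 1 was Snmp1, a membrane protein of pheromone sensing, at 7.42 to 8.76. Of the 4 insect chemosensory proteins of the OS-D type, also small secreted ligand carriers, EbpIII, Phk-3 and CG30172 were above background on all 8 arrays and a10 on none. The family member lush, whose symbol falls outside the rule, was at 3.56 to 4.31 and above background on no array.

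Genes of chromosome arm 3R were among those above both background levels in every sample. Obp99b is known from fly heads as a fat body gene with higher expression in males. Its signal was 11.41, 11.96, 11.18 and 10.37 in the arrays labelled null 1 to null 4, against 11.75, 11.78, 10.53 and 11.35 in those labelled het 1 to het 4. Its neighbour Obp99c read 11.01, 11.33, 11.49 and 9.84 in null 1 to null 4, against 10.54, 11.33, 10.11 and 10.84 in the arrays labelled het 1 to het 4. Both genes were lowest on null 4 and next lowest on het 3, both P6 arrays, while the labels overlapped. Obp99d, the gene between them in the annotation, read 5.64 to 6.58 in null and 5.50 to 6.07 in het. Obp99a, which lies apart from these genes on the same arm, kept within 10.41 to 10.43 on the 4 null arrays and spread over 9.79 to 10.95 on the 4 het arrays.

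The other members above background on all arrays differed in how steady they were. Obp44a, known as a gene of glia, read 9.25, 9.12, 8.63 and 9.03 in null 1 to null 4, against 9.41, 9.39, 8.85 and 9.54 in the arrays labelled het 1 to het 4. Obp84a, first described from the antenna, kept within 8.24 to 8.88 in null and 8.34 to 8.56 in het. Obp28a, another gene first described from the antenna, kept within 5.18 to 5.49 in null and 5.34 to 5.55 in het. Obp8a and Obp19b likewise spanned less than 1 unit over the 8 arrays, as did 28 of the 47 members in all. Obp8a, which encodes a seminal fluid protein in males, read 5.26 to 5.59 in null and 5.37 to 5.65 in het. Obp83cd, Obp83ef and Obp83g, adjacent genes of which the first 2 encode proteins with a pair of binding domains, each had their lowest value on null 4 or het 3. Obp83cd had the widest range of the 3, at 5.92 to 7.39 in null and 5.30 to 7.03 in het.

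Of the 15 members above background on no array, the means lay between 3.40 and 4.55 and no range over the 8 arrays exceeded 0.91. They included Obp83b and Obp69a, genes of antennal odour sensing, at 3.63 to 4.03 and 3.70 to 4.52. They also included Obp56h, linked to male courtship, at 3.99 to 4.90, and Obp57e, which acts in leg taste hairs, at 3.45 to 4.17. Among the members with extra cysteines, called Plus-C, Obp49a was above background on all 8 arrays and Obp50e and Obp93a on 5. The Plus-C genes Obp46a, Obp47b, Obp50a, Obp50d, Obp58b, Obp58c, Obp58d and Obp85a were above it on no array. Obp59a, needed for humidity sensing, was above background on 7 arrays at 5.01 to 5.37, while its other probe set read 3.12 to 3.36 and was below background on all. By chromosome, 14 of 19 members on X and 3 and 6 of 28 members on chromosome 2 were above background on all 8 arrays. No share of all named genes per chromosome was computed, so these counts are not read as a difference between chromosomes.

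Several members were high on a single array. The highest array was at least 2-fold above every other for 7 members, and for 3.91% of all named genes. Of these 7, 4 were highest on null 2 (2% of named genes had such a value there), 2 on het 3 (0.492% of named genes) and 1 on null 4.

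The members high on het 3 were genes of seminal fluid proteins. Obp51a read 2.90, 2.92, 3.47 and 2.95 in null 1 to null 4, against 3.07, 3.82, 8.59 and 3.43 in the arrays labelled het 1 to het 4. Het 3 was thus 4.77 units above the next array, and all others were below background. Obp56f read 5.56 on het 3 and 3.23 to 3.53 on the other 7 arrays. Obp56i and Obp22a, also seminal fluid genes and named here after their values were seen, were above background on het 3 alone, at 5.32 and 5.04. Obp56e was above background on 3 arrays, null 4, het 1 and het 3. Obp56g, another gene of male reproductive secretions, was below background on het 3. A list of male accessory gland and ejaculatory duct or bulb genes also had its highest mean on het 3. Of its 15 measured members, 14 were above background on het 3, against 3 to 5 on the null arrays and 2, 10 and 8 on the arrays labelled het 1, het 2 and het 4. Its summed signal was 8660 on het 3, against 4675 to 5602 on the null arrays and 5142 to 6199 on the other het arrays. Not all genes of the list were highest there. EbpII read 3.58 on het 3, against 7.17 on het 2 and 5.99 on het 4, and Acp29AB 6.68 on het 3, against 7.05 on null 2. Acp95EF, the highest gene of the list on every array, kept within 12.07 to 12.42, and Acp32CD within 6.425 to 6.845. The genes whose levels over the 8 arrays were most like those of Obp51a were Acp53C14b, Acp53C14c and Acp53C14a, with Pearson's r of 0.998, 0.997 and 0.994, all accessory gland genes of chromosome arm 2R. They read 10.79, 6.87 and 8.89 on het 3, and with 8 arrays a single shared high value can give such coefficients. The part of male tissue in these signals was not tested.

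The members high on null 2 included a cluster of neighbours on chromosome arm 2R. Obp57a was 11.58 on null 2, 1.42 units above the next array, and its neighbours Obp57b and Obp57c were 7.85 and 8.81 there, 1.57 and 1.98 units above the next array. Obp57c was lowest on null 4, at 4.17, and between 5.97 and 6.84 on the other 6 arrays. The fourth, Obp56d, read 7.02, 9.29, 5.07 and 5.21 in null 1 to null 4, against 7.91, 5.12, 7.36 and 4.19 in the arrays labelled het 1 to het 4. It was high on null 2, het 1, het 3 and null 1, a pattern that follows neither the label nor the background. Among genes outside the family, CG43090, CG13408 and Jon74E, a midgut serine protease, were most like it over the 8 arrays, with r of 0.926, 0.915 and 0.912. A single shared high array can give such coefficients here too. The summed signal of 22 midgut serine proteases was 17821 on null 2, against 3055 to 6406 on the other null arrays and 1172 to 5023 on the het arrays. It was 6406 on null 3 and 5023 on het 1, where Obp56d read 5.07 and 7.91, and 3055 on null 1, where Obp56d read 7.02. The sum of 14 trachea and cuticle genes was also highest on null 2, at 9462, against 1181 to 3316 on the other 7 arrays. The part of these tissues in the signals of the 4 genes was not tested. Of the 20 members above background on all arrays, 8 were highest on null 2, whereas 10% of all such genes were.

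**Figure D2:**
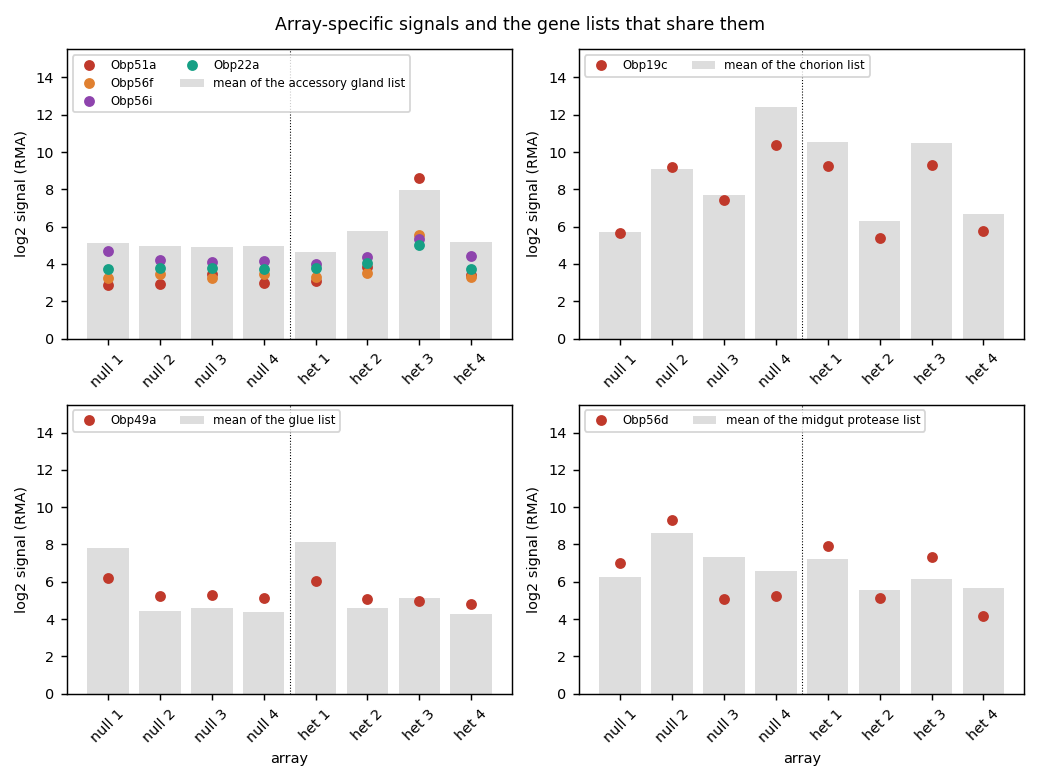
Log2 signal (RMA) of single members (points) on the arrays labelled null 1 to null 4 and het 1 to het 4, left and right of the dotted line, over grey bars with the mean log2 signal of a gene list on the same array. Obp51a, Obp56f, Obp56i and Obp22a are highest on het 3, as is the accessory gland list at 7.96; Obp19c and the chorion list are highest on null 4; Obp49a and the glue list are highest on null 1 and het 1; Obp56d and the midgut protease list are highest on null 2.

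Obp19c had one of the widest ranges of the family. It read 5.64, 9.18, 7.44 and 10.38 in null 1 to null 4, against 9.26, 5.41, 9.30 and 5.78 in the arrays labelled het 1 to het 4. Both labels and both backgrounds thus held high and low arrays. Its other probe set moved over a smaller range, 4.40 to 5.37 over the 8 arrays, and was highest on null 4 as well. After these values were seen, Obp19c was also set beside other genes: CG11381, CG4009 and CG13114 had r of 0.997, 0.996 and 0.994 with it over the 8 arrays. Late eggshell (chorion) genes, a list added at the same point, averaged 5.74, 9.07, 7.69 and 12.39 in null 1 to null 4, against 10.51, 6.28, 10.50 and 6.66 in the arrays labelled het 1 to het 4. The 4 arrays with the highest chorion mean were the 4 with the highest Obp19c, and the part of egg chamber stage was not tested. The neighbours of Obp19c behaved differently: Obp19a was below background on all arrays and Obp19b spanned 5.67 to 6.17.

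Obp49a, which acts in taste hairs for bitter compounds, read 6.22, 5.24, 5.27 and 5.12 in null 1 to null 4, against 6.06, 5.07, 4.95 and 4.82 in the arrays labelled het 1 to het 4. The 2 high arrays, null 1 and het 1, were also those with the highest mean of salivary gland glue genes. The 10 listed glue genes averaged 7.83 on null 1 and 8.14 on het 1, against 4.30 to 5.11 on the other 6 arrays. On het 3, where Obp49a read 4.95, 6 of the 10 were above background, with Sgs3 at 6.63. The part of salivary gland tissue in this signal was not tested.

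Null and het were compared over 4 arrays each. Of the 47 members, 25 were higher and 22 lower in null, and their median log2 difference (null minus het) was 0.02, against -0.01 over all 18769 probe sets. At the study's thresholds, a difference of at least 2-fold with an unadjusted p under 0.05, 1 member was called higher in null, Obp57a, and none lower; 0.133% of all probe sets were called higher. At a Benjamini-Hochberg adjusted p under 0.05 by limma, 0 members and 0% of probe sets were called. With the unadjusted p alone, 1 member passed, against 2.25% of probe sets. For no member were the 4 null arrays all above or all below the 4 het arrays, as they were for 1.42% of named genes. The 28 members on chromosome 2 split into 14 higher and 14 lower in null, with a median of 0.0027, and the 19 on the other chromosomes into 11 and 8, with a median of 0.04.

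Obp57a read 10.15, 11.58, 9.05 and 7.35 in null 1 to null 4, against 6.13, 6.47, 9.61 and 4.90 in the arrays labelled het 1 to het 4. The groups overlapped, since het 3 was above null 3 and null 4. The mean was 9.53 ± 1.79 in null and 6.78 ± 2.00 in het (SD, n = 4 each). This was 6.75-fold, or 2.75 on the log2 scale with a standard error of 1.17, at an unadjusted limma p of 0.0471 and adjusted p = 1. An exact two-sided permutation test gave p = 0.0857, where 0.0286 is the smallest that 4 against 4 can give. The call was lost on leaving out any one of null 1, null 2, null 3 or the arrays labelled het 1, het 2 and het 4 (unadjusted limma p of 0.0651 to 0.123), with differences of 2.07 to 2.92. It was kept without null 4 (3.48, p of 0.0186) and without het 3 (3.70, p of 0.0065). With the background as a block p was 0.0569 for the same difference. Its neighbours Obp57b and Obp57c had differences of 0.46 and 0.32 (standard errors 0.43 and 0.84), and both were highest on null 2. The 3 genes whose levels were most like those of Obp57a, CG34225, CG13532 and CG18302 with r of 0.949, 0.932 and 0.909, all read below background, between 3.09 and 4.09.

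**Figure D3:**
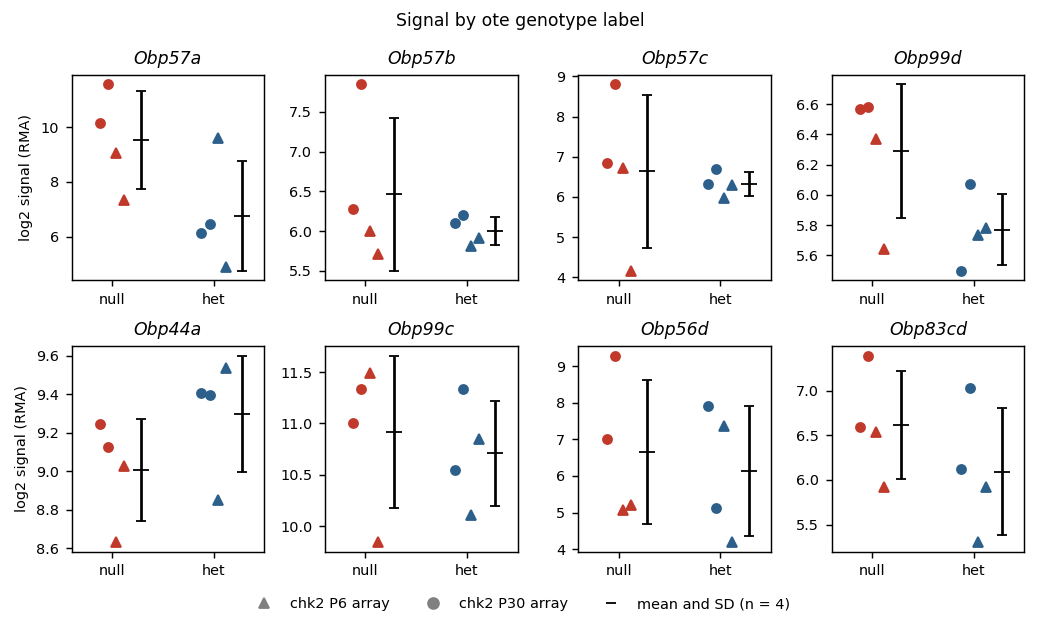
Log2 signal (RMA) of 8 members by ote genotype label, null left and het right, each point 1 array, with the mean and SD of 4 arrays as a bar beside them. Triangles are P6 and circles P30 arrays; in every panel the values of the labels overlap, and for Obp57a het 3 (9.61) lies among the null arrays.

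The other members above background on all arrays differed by less than 2-fold between the labels. Obp99d was 6.29 ± 0.44 in null and 5.77 ± 0.23 in het (SD, n = 4 each), a difference of 0.52 (standard error 0.23, unadjusted limma p of 0.054, adjusted p = 1; exact permutation p = 0.114). Pairs of arrays chosen after the data were seen were also left out. Without the arrays labelled het 2 and null 4, the lowest null array for Obp99d at 5.64, that difference was 0.84 (unadjusted limma p of 0.000562, below 2-fold). Without het 1 and null 1 it was 0.34 (p of 0.263). Obp44a was 9.01 ± 0.27 in null and 9.30 ± 0.30 in het, and Obp99b was 11.23 ± 0.66 in null and 11.35 ± 0.58 in het (SD, n = 4 each). Among the 15 members above background on no array, the differences lay between -0.16 and 0.22. In the sensory families set beside them, 0 genes were called between the labels among the odorant, gustatory and ionotropic receptors, the CheA and CheB genes, the OS-D type proteins and the co-receptors.

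Within the P30 background alone, 2 arrays against 2, Obp57a was called higher in null, at 10.15 and 11.58 against 6.13 and 6.47 in the arrays labelled het 1 and het 2 (difference 4.56, standard error 1.53, unadjusted limma p of 0.0254, adjusted p = 1). There 0.213% of probe sets were called higher. The call was lost without null 2 (3.85, p of 0.111) or the arrays labelled het 1 (4.39, p of 0.0905) and het 2 (4.73, p of 0.0741), each leaving 1 array assumed to vary like the other groups. Obp99d also had an unadjusted p under 0.05 in P30 (difference 0.79, limma p of 0.0375) and missed the fold of 2. Within P6 no member was called, where 0.261% of probe sets were, and Obp57a had a difference of 0.95 (standard error 1.53). The difference between the backgrounds in the null minus het effect, the interaction, was -3.62 for Obp57a (standard error 2.16, unadjusted limma p of 0.147). No member was called for the interaction, against 0.277% of probe sets, and none at an adjusted p under 0.05, against 0% of probe sets. Obp46a alone had an unadjusted p under 0.05 for it, at signals below background on all arrays.

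Between the chk2 backgrounds most members read lower in P6, few of them past a threshold. In P6 against P30 arrays, in a fit with the label as a term, 34 members were lower and 13 higher in P6. Their median log2 difference (P6 minus P30) was -0.15, against -0.02 over all probe sets, and over all named genes 6108 were lower and 5874 higher. Of the 20 members above background on all arrays 17 were lower in P6, with a median of -0.46, and of the 15 above background on none 9 were, with a median of -0.05. The same counts were not computed for all named genes split by background, so these 2 counts have no like share beside them. At the study's thresholds 1 member was called lower in P6, Obp56a, and 0.522% of probe sets were. With the p alone 7 members were lower, against 4.43% of probe sets, and none was higher. At an adjusted p under 0.05 by limma 0 members and 0% of probe sets were called. The 2 chk2 alleles lie on different second chromosomes, each with an ote allele. An effect of chk2 and other differences between these chromosomes, on which 28 members lie, cannot be told apart.

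Obp56a read 7.68 and 7.55 in null P6 and 7.40 and 7.49 in het P6 arrays, against 8.95 and 9.87 in null P30 and 7.98 and 9.02 in het P30 arrays. All 4 P6 arrays were below all 4 P30 arrays. The mean was 7.53 ± 0.12 in P6 and 8.95 ± 0.77 in P30 (SD, n = 4 each), so the signal was lower in P6 by 2.69-fold (log2 difference -1.43, standard error 0.31, unadjusted limma p of 0.00255, adjusted p = 0.512). The exact permutation p was 0.0286, the smallest 4 against 4 can give. The call was kept under all 15 alternatives tried, with differences of -1.92 to -1.02. In the same gene cluster, the groups overlapped for Obp56d, at a difference of -1.88 with a standard error of 1.01. They did not overlap for Obp56g, above background on 4 arrays, which read 4.75 ± 0.16 in P6 and 5.17 ± 0.21 in P30 (SD, n = 4 each).

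**Figure D4:**
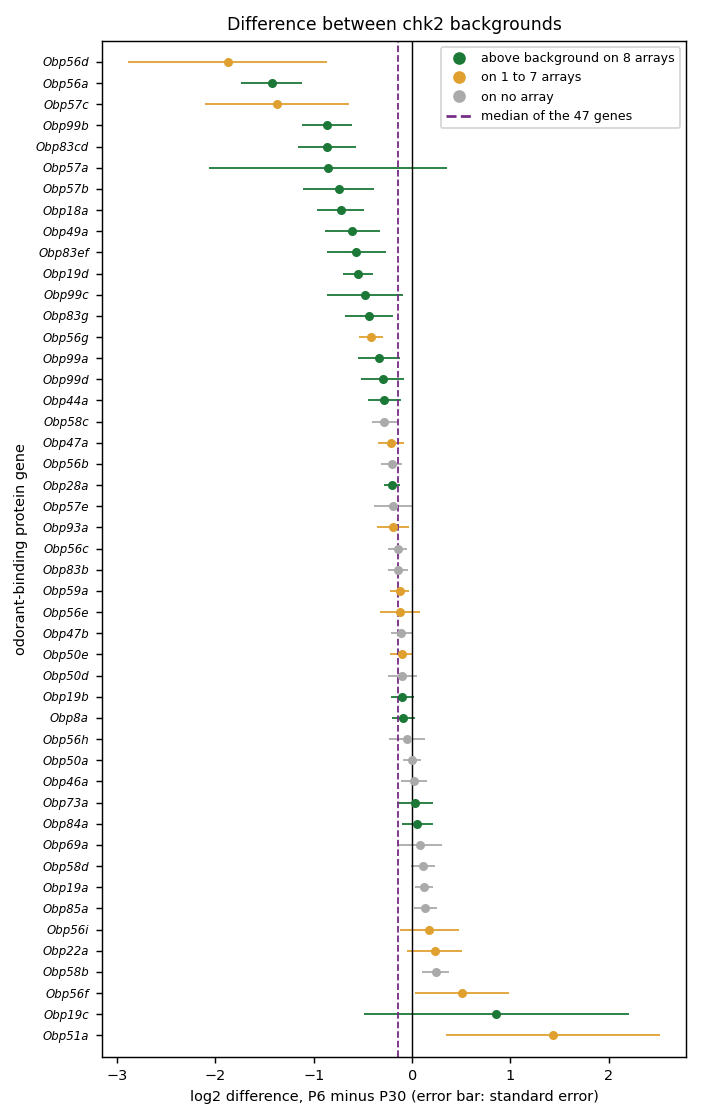
Log2 difference P6 minus P30 of each of the 47 members (points, with the standard error of the limma fit as a bar), sorted from the lowest, in colours for the number of arrays on which the gene was above background. The dashed line is the members' median at -0.15; 34 points lie below 0, among them 17 of the 20 green points.

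The other 6 members with an unadjusted p under 0.05 were lower in P6 by less than 2-fold, and none passed adjustment. Obp99b was 10.86 ± 0.48 in P6 and 11.72 ± 0.23 in P30 (SD, n = 4 each; difference -0.87, standard error 0.25, unadjusted limma p of 0.0115), with the 4 P6 arrays below the 4 P30 arrays. Obp83cd had the same difference (standard error 0.29, p of 0.0219), but its groups overlapped. Obp18a differed by -0.73 (p of 0.0194), Obp19d, found in antennae and taste organs, by -0.55 (p of 0.0097), Obp56g by -0.42 (p of 0.0132) and Obp28a by -0.21 (p of 0.0385). The exact permutation test gave p = 0.0286 for Obp99b, Obp56g and Obp28a and p = 0.0571 for Obp83cd, Obp18a and Obp19d. Over up to 15 alternatives, Obp19d stayed under 0.05 in 15, Obp99b in 14, Obp56g in 13, Obp18a in 12, Obp83cd in 10 and Obp28a in 3. Obp19d is read by a probe set whose name marks that it may read more than 1 gene. The backgrounds did not overlap for 5 members, Obp99b, Obp56a, Obp57b, Obp28a and Obp56g, all lower in P6, against 6.17% of named genes in either direction.

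Marker lists of ovary cells and of other tissues also differed between the backgrounds. Of 8 follicle cell and eggshell markers 8 were higher in P6 (median log2 difference 0.86), with summed signals of 31485 to 48452 on P6 arrays and 13162 to 31106 on P30 arrays. Of 7 muscle markers 6 were lower in P6 (median -0.40), with sums of 17972 to 26076 on P6 arrays and 23120 to 33932 on P30 arrays. Of 4 fat body and haemolymph genes 3 were lower (median -0.72), and of 14 trachea and cuticle genes 13 were (median -0.23). Of 22 midgut serine proteases 17 were lower (median -0.50), with sums of 1362 to 6406 on P6 arrays and 1172 to 17821 on P30 arrays, and of 9 haemocyte genes 7 were (median -0.20). Glue genes were lower in P6 in 10 of 10 cases (median -1.54), with sums of 205 to 420 on P6 arrays and 242 to 9664 on P30 arrays. Of the P30 arrays only null 1 and het 1 were high. Null 2 and het 2 had glue means of 4.46 and 4.62, within the 4.30 to 5.11 of the P6 arrays. The part of these tissues in the lower odorant-binding protein signals was not tested. Of the OS-D type proteins, EbpIII and Phk-3 were called lower in P6, by log2 differences of -1.32 and -1.27 (unadjusted limma p of 0.023 and 0.000867, adjusted p = 0.512 for each). With the arrays het 1 and null 1, high in glue genes, left out, 5 members were called lower in P6, Obp18a, Obp56a, Obp57b, Obp83cd and Obp99b, and 2.23% of all probe sets were.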

How the data were processed

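RNA of 8 ovary samples was hybridised to 1 array each. The deposited log2 values were made by the authors with RMA. The submitters' notes give Affymetrix Expression Console 1.4.1 for this step and the study's methods give the Transcriptome Analysis Console. The log base was read from the values, 2.37 to 14.5. Of 18952 probe sets 183 controls were left out and 18769 were tested without a filter. The annotation named 1 gene for 13647 of these, several for 402 and none for 4720, updated through RefSeq. Contrasts were fitted with limma 3.58.1 in R 4.3.3 over all 8 arrays, with p adjusted over all probe sets: labels without a covariate, backgrounds with the label as a term, and 4 groups of 2 arrays for the interaction. The fit was tested on simulated data. Members above background on all arrays, with an unadjusted p under 0.05, with a range over 2, or with the highest or lowest mean were named, and others were chosen after their values were seen. Members and lists were chosen with earlier results of these data known. The number of arrays limits the precision. No sequences were shown, since none were used here.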

Additional observations from a re-analysis of the deposited data

Results flagged for a closer look

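In 54 groups of 4 arrays, those of the 27 members named by rule, 8 groups held an array whose gap to its nearest neighbour passed Dixon's 95% critical value. Chance alone passes about 1 of 20 groups, and members were named in part for a wide range. On het 3, Obp51a read 8.59 against 3.07, 3.43 and 3.82 on the other het arrays, and Obp56f 5.56 against 3.30, 3.32 and 3.53. Obp51a was also higher on null 3, at 3.47 against 2.90, 2.92 and 2.95 on the other null arrays, all below background. Obp49a stood apart on null 1, at 6.22 against 5.12, 5.24 and 5.27. Obp83ef read 6.46 on the array labelled het 2, against 5.83, 5.86 and 5.90 on the other het arrays. Smaller gaps were seen for Obp19b (6.17 on het 1 against 6.00, 6.01 and 6.01), Obp8a (5.37 on het 4 against 5.64, 5.65 and 5.65) and Obp47b (3.44 on null 4 against 3.31, 3.32 and 3.33).

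Obp46a differed between the backgrounds in its null minus het effect, by 0.52 (standard error 0.20, unadjusted limma p of 0.0414, adjusted p = 1). It was 4.45 and 4.24 in null against 3.98 and 4.10 in het P6 arrays, and 4.02 and 4.11 in null against 4.32 and 4.24 in P30 arrays labelled het 1 and het 2. All 8 values were below background. Over the alternatives p lay between 0.0291 and 0.217.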

How the results depend on the processing

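The number of called members was small, so single arrays moved it. Between null and het 1 member was called, 0 with the background as a block or an unmoderated fit, and 0 to 1 when each array was left out in turn. With each array left out, 0.0693% to 0.522% of probe sets were called in either direction. Without the arrays labelled het 2 and null 4, chosen after seeing the data, 2 were called (Obp57a and Obp83cd, with 0.575% of probe sets called higher), and without het 1 and null 1, likewise, 0. Between P6 and P30 1 was called, 1 to 3 with each array left out (2 or 3 without null 1, null 3 or any array labelled het), and 5 without het 1 and null 1. Of all probe sets, 1.64% were called in either direction with all arrays and 0.789% to 3.58% with each array left out. Without het 1 and null 1 that share was 5.49%. For the interaction, 0 were called, 0 to 6 with each array left out (1 without null 1, Obp57b, 2 without null 3, Obp57c and Obp83ef, and 6 without het 4, Obp22a, Obp51a, Obp56f, Obp56i, Obp57a and Obp99a), and 1 without het 1 and null 1 (Obp57b). Every interaction fit with arrays left out had at least 1 group of a single array, so these counts are not read as effects on the members. Without het 4 the P6 het group was het 3 alone, the array on which Obp22a, Obp51a, Obp56f and Obp56i were highest. Within P30 1 member was called with all arrays, where 0.245% of probe sets were in either direction. Within P6 0 were, against 0.261% of probe sets. Leaving out each array in turn, also added after seeing the data, again left 1 array in a group, and no counts are given. Above background on all arrays were 20 members, 7 with the 99th percentile of the receptors and 9 with the median of all probe sets. At an adjusted p under 0.05, 0 members were called between labels, between backgrounds or for the interaction under every setting run. Direction was followed over the settings only for Obp57a and Obp99d between labels, Obp46a for the interaction, and Obp57a within P30. Between backgrounds it was followed for the 7 members with an unadjusted p under 0.05. None of these differences turned, and the direction of other members was not followed. Replicate numbers are shared by null and het but tied to no batch, and same-numbered arrays deviated together with r of -0.00178, 0.38, 0.536 and -0.0993, so no pairing was used; with the replicate number as a block 1 member was called, Obp57a at 2.75. The filter on dim probe sets left 18 members to test.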
